A study of Mus musculus with 6 samples.

Results

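The 40 genes described here encode enzymes of fatty acid and triglyceride synthesis, from the export of citrate out of mitochondria to the last acylation of glycerol. They were chosen by name as members of the pathway, with earlier results of these data known. Of the 40, 37 had a probe set annotated to that gene alone, out of 21967 named genes on the array. Scd2 and Acsl3 are read only by probe sets annotated to several genes, and they and Acsl1 are not analysed here. RNA of C3H10T1/2 cells, mouse mesenchymal stem cells able to become adipocytes, was measured after 9 days of differentiation on single-colour Affymetrix arrays. Every culture had 72 h of contact with an adenovirus vector (multiplicity of infection 50) expressing a short hairpin RNA from the U6 promoter. The hairpin was a scrambled control in 3 replicates (scramble) and targeted Zc3h10, which encodes a CCCH zinc finger protein, in the other 3 (Zc3h10 shRNA). There was 1 hairpin of each kind, and no culture without virus is analysed here. The labels call the samples biological replicates without naming separate differentiations, so p-values measure only the spread between these samples.

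Fat cells make fatty acids in the cytosol by joining acetyl units that arrive as citrate, then lengthen and desaturate the chains and activate them with coenzyme A. Triglyceride is built by adding such acyl chains to glycerol-3-phosphate in turn, with removal of the phosphate before the last addition. Most steps are served by several isoenzymes. In fat cells SREBP-1c, ChREBP and PPARγ are known regulators of these genes.

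In the Zc3h10 shRNA cells the route from citrate to palmitate was lower at every measured gene, while the later steps were mixed. Among the isoenzymes some fell, Fads3 and Agpat4 rose and others did not pass the test. None of the 3 front-end desaturases passed as lower, nor did any of the 3 measured acyl-CoA synthetases, which do not include Acsl1 and Acsl3. Of the 37 measured genes, 17 were lower, 2 were higher and 18 did not pass (limma, Benjamini-Hochberg adjusted p under 0.05 over 33079 probe sets). Under the same rule 6.61% of all named genes were lower and 5.51% were higher. Among named genes at or above a background limit defined below, 12.0% were lower. The median log2 change (Zc3h10 shRNA minus scramble) was −0.29 over the 37 genes, against 0.013 over all named genes. A log2 change of −1 or lower was found for 8 of the 37 and for 1.23% of named genes. The intensities of the 2 conditions did not overlap for 27 of the 37, of which 23 were lower, against 15.2% of all named genes lower and 16.7% higher without overlap.

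Probes differ in brightness, so levels are given to compare arrays and not genes. A limit of 20.7 intensity units, under which values are called within background, was taken from 1375 olfactory and vomeronasal receptor genes as the top of the range that holds 95% of them. Array medians lay between 15.6 and 16.1 intensity units, and log2 values correlated at 0.992 to 0.994 within a group. Zc3h10 itself was at 25.9, 39.0 and 35.3 intensity units in scramble replicates 1, 2 and 3 and at 25.2, 30.2 and 22.9 in the corresponding shRNA replicates. Its log2 change was −0.34 ± 0.17 (SE; limma, adjusted p = 0.301; two-sided exact permutation p = 0.2), so a lower Zc3h10 signal did not pass the test. The groups are therefore named by their hairpin.

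**Figure D1:**
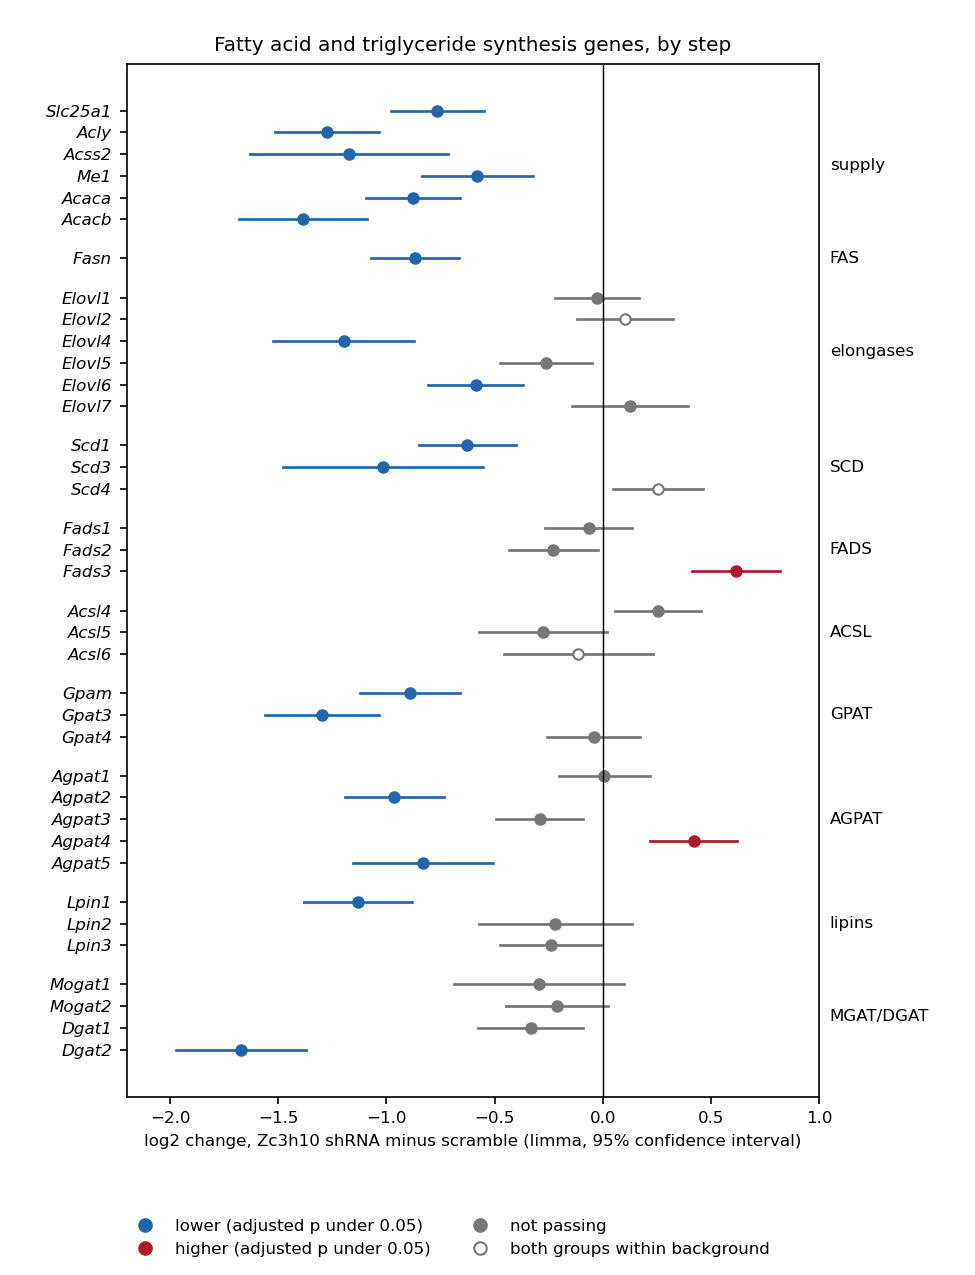
Log2 change of the 37 genes, Zc3h10 shRNA minus scramble, with unadjusted 95% confidence intervals from limma (3 arrays per group), ordered by step from citrate export to triglyceride. All 6 genes of carbon, NADPH and malonyl-CoA supply lie left of 0, while most later families hold some genes near 0.

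All 6 genes that supply carbon, reducing power and malonyl-CoA were lower. Values are listed for replicates 1, 2 and 3 of each group, here and below. Slc25a1, the mitochondrial citrate carrier, was at 2013, 2313 and 2189 intensity units on the scramble arrays and at 1265, 1232 and 1334 on the shRNA arrays. ATP citrate lyase, Acly, which splits that citrate into acetyl-CoA, was at 2169, 2434 and 2379 on the scramble arrays and at 1062, 949 and 877 on the shRNA arrays. For both genes every shRNA array lay below every scramble array. The log2 changes were −0.76 ± 0.09 for Slc25a1 (SE; adjusted p = 0.00221) and −1.28 ± 0.10 for Acly (2.42-fold lower; adjusted p = 0.000697).

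Acss2, the cytosolic enzyme that makes acetyl-CoA from acetate, was at 168, 155 and 184 intensity units on the scramble arrays and at 87.5, 89.6 and 53.1 on the shRNA arrays. Its shRNA replicate 3 was the lowest, and its log2 change was −1.17 ± 0.20 (adjusted p = 0.00849). Malic enzyme, Me1, a source of cytosolic NADPH, changed least of the 6, from 1394, 1619 and 1666 to 1063, 946 and 1122. Its log2 change of −0.58 ± 0.11 passed (adjusted p = 0.0145), but not without scramble replicate 2, scramble replicate 3 or shRNA replicate 2, with a largest adjusted p of 0.0619.

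The acetyl-CoA carboxylases make malonyl-CoA, in the cytosol for Acaca and at the mitochondrial surface for Acacb, where it restrains the entry of fatty acids for oxidation. Acaca was at 655, 758 and 740 intensity units on the scramble arrays and at 392, 377 and 401 on the shRNA arrays. Acacb went from 114, 153 and 138 to 55.2, 47.0 and 52.6. Neither gene's groups overlapped. The log2 change was −0.88 ± 0.09 for Acaca (adjusted p = 0.00140) and −1.38 ± 0.13 for Acacb (2.61-fold lower; adjusted p = 0.000882). Within an array the log2 ratio of Acacb to Acaca differed by −0.51 ± 0.08 between conditions (SE), with no overlap between the groups. With an offset of 32 that difference was −0.17. Of all named genes, 0.856% had a ratio to Acaca that was lower without overlap.

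Fasn, the fatty acid synthase that joins the acetyl and malonyl units into palmitate, was at 3603, 3749 and 3997 intensity units on the scramble arrays and at 2119, 2102 and 1999 on the shRNA arrays, with no overlap. Its log2 change was −0.87 ± 0.09 (1.82-fold lower, or 54.8% of scramble with a 95% confidence interval of 47.7 to 63.1%; adjusted p = 0.00116).

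**Figure D2:**
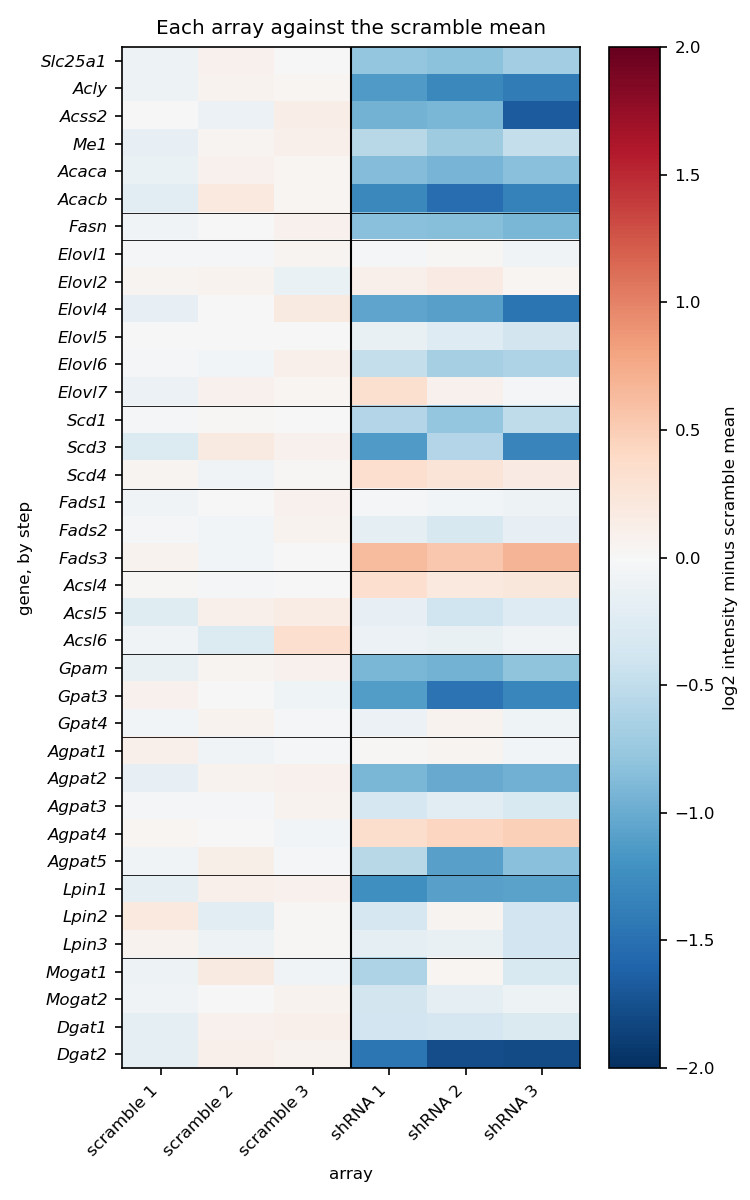
Log2 intensity of each of the 37 genes on each of the 6 arrays, minus its mean over the 3 scramble arrays, with steps separated by thin lines. The 17 lower genes, called from these same arrays, lie below the scramble mean on all 3 shRNA arrays. Fads3 and Agpat4, called higher, lie above it on all 3.

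Each of the 17 lower genes was below its scramble mean on all 3 shRNA arrays, without overlap between the groups. Their median deviation from the scramble mean on the log2 scale was −0.92, −0.94 and −0.96 on shRNA replicates 1, 2 and 3. These genes were called from the same arrays, so low values on all 3 follow largely from that choice. Over all 37 measured genes the median deviation was −0.38, −0.33 and −0.38. Among the 17 lower genes, the lowest value fell on shRNA replicate 2 for 10, on shRNA replicate 3 for 6 and on shRNA replicate 1 for 1. Among the scramble arrays, replicate 1 held the lowest value for 14 of the 17, with a median deviation of −0.13. Scramble replicate 1 also had the lowest summed intensity of 11 mature adipocyte markers among the scramble arrays, 20646 units against 23016 and 22877 in scramble replicates 2 and 3.

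Windows listed as promoters are shown for Slc25a1, Acly, Acaca and Fasn, genes of the route from citrate to palmitate that were all lower. That of Fads3, a desaturase gene that rose, is shown beside them, so that the letters near the listed starts can be compared. Each window runs 5′ to 3′ from 250 bases before to 50 bases after a start listed for the gene in RefSeq, in build GRCm38.p6. The Acaca window reads cccatag just before its listed start and holds an ATG after it. That start may therefore lie inside the gene, and the window may not be a promoter. Capitals mark the CCAAT box (CCAAT) and the E-box CACGTG, which USF factors bind, on either strand. The Acaca window held neither, which says nothing about other Acaca starts, as none was searched. The regions are chr16:17928170-17928469 on the minus strand for Slc25a1, chr11:100527951-100528250 on the minus strand for Acly, chr11:84195188-84195487 on the plus strand for Acaca, chr11:120824498-120824797 on the minus strand for Fasn, and chr19:10041298-10041597 on the plus strand for Fads3.
Slc25a1: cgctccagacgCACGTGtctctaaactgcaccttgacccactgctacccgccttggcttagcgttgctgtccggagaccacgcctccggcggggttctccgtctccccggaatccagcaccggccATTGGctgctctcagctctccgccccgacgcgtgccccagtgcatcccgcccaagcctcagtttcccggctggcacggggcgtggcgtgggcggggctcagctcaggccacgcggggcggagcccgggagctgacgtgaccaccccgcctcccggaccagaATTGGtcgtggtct
Acly: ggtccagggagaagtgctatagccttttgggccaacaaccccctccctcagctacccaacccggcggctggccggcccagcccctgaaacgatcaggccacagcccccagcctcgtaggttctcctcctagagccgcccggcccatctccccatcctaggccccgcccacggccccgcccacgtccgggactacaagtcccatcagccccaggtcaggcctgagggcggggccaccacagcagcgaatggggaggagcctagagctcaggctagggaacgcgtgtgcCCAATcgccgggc
Acaca: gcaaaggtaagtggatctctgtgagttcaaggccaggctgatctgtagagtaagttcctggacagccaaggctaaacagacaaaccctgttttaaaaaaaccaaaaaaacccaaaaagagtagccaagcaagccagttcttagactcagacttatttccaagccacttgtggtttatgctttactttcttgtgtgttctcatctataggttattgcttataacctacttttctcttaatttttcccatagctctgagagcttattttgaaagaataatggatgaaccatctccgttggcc
Fasn: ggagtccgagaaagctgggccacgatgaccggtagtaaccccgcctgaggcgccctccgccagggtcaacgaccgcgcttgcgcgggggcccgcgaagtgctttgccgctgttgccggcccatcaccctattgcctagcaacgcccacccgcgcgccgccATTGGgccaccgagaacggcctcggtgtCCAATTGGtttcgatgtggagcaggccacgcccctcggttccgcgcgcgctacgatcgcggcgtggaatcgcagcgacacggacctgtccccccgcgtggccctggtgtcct
Fads3: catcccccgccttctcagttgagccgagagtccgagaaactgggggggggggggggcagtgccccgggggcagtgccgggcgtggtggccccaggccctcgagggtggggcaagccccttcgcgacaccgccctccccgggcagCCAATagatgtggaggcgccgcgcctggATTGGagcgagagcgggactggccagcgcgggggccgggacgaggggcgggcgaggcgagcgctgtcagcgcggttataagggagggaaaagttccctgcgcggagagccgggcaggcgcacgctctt

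Promoter windows of 32 of the 40 genes were matched by symbol in the RefSeq table, and for the measured genes these were 14 lower genes and 16 others. The 14 include Acaca with the window above. Some genes had several listed windows, and such a gene was counted if any of them held the letters. The letters CACGTG were in a window of 2 of the 14 lower genes, Slc25a1 and Elovl4, and of 3 of the 16 others. The share of 27025 genes was 8.09%, and both strands were searched for each motif here. A CCAAT box was found for 8 of the 14 and 9 of the 16, against 41.1% of all genes. A GC box, GGGCGG, was in 8 of the 14 and 10 of the 16, against 38.2%. The letters TCACNCCAC, the core of a sterol regulatory element, were in 0 of the 14 and 0 of the 16, against 1.44%. An exact PPAR direct repeat with a spacer of 1 base was in none of the 32, against 0.0481%. These matches describe letters in the windows and are not binding sites.

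Of 6 elongases measured, which add carbon pairs to fatty acyl chains, 2 were lower and 4 did not pass. Elovl6, which lengthens palmitate, was at 829, 814 and 907 intensity units on the scramble arrays and at 608, 535 and 556 on the shRNA arrays, a log2 change of −0.59 ± 0.10 (adjusted p = 0.00722). Elovl4, which makes very long chains, was at 91.3, 102 and 117 on the scramble arrays and 49.6, 48.5 and 37.4 on the shRNA arrays, a log2 change of −1.20 ± 0.14 (adjusted p = 0.00201). For both elongases all shRNA arrays lay below all scramble arrays.

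The other elongases stood closer to 0. Elovl5, which acts on polyunsaturated chains, was at 1299, 1280 and 1287 on the scramble arrays and 1165, 1073 and 996 on the shRNA arrays. The groups did not overlap, but the log2 change of −0.26 ± 0.09 did not pass (adjusted p = 0.140). Elovl1, an elongase of long saturated chains, was at −0.026 ± 0.08 (adjusted p = 0.908; 95% confidence interval −0.22 to 0.17) and turned to 0.019 with quantile normalization. Elovl7 was at 0.13 ± 0.12 (adjusted p = 0.613) and Elovl2, within background in both groups, at 0.10 ± 0.10 (adjusted p = 0.630).

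Within an array, the log2 ratio of Elovl4 to Elovl5 differed by −0.94 ± 0.13 between conditions and that of Elovl6 to Elovl5 by −0.33 ± 0.07, both without overlap. A lower ratio to Elovl5 without overlap was found for 4.96% of all named genes. The ratio of Elovl1 to Elovl5 was higher by 0.23 ± 0.07 and that of Elovl7 by 0.39 ± 0.08, as for 48.2% of all named genes.

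The stearoyl-CoA desaturases place a double bond in fatty acyl chains, such as the one that turns stearate into oleate. Scd1, a main form in fat tissue, was at 6917, 7146 and 7002 intensity units on the scramble arrays and 4668, 4111 and 4918 on the shRNA arrays. The groups did not overlap, and the log2 change was −0.62 ± 0.10 (adjusted p = 0.00595). Scd3, a related desaturase, was at 34.7, 47.3 and 44.4 on the scramble arrays and at 19.0, 27.8 and 16.7 on the shRNA arrays, where its mean log2 value lay just within background.

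The log2 change of Scd3, −1.01 ± 0.20, passed (adjusted p = 0.0167), but not without scramble replicate 2, scramble replicate 3, shRNA replicate 1 or shRNA replicate 3 (largest adjusted p = 0.0698). The ratio of Scd3 to Scd1 overlapped between the groups, with a difference of −0.39 ± 0.32 (two-sided exact permutation p = 0.4). Scd4 was within background in both groups, at 0.26 ± 0.09 (adjusted p = 0.140), and its ratio to Scd1 was higher without overlap, as for 86.2% of all named genes. The 4 Scd genes follow each other on chromosome 19 in the RefSeq order, and as related copies they may share probe signal, so the low Scd3 and Scd4 values are uncertain.

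The front-end desaturases Fads1 and Fads2 introduce double bonds into polyunsaturated fatty acids, and Fads3 lies beside Fads2 on chromosome 19. Fads3 was higher, at 667, 615 and 630 intensity units on the scramble arrays and 984, 928 and 1019 on the shRNA arrays. All shRNA arrays lay above all scramble arrays, and the log2 change was 0.62 ± 0.09 (1.53-fold higher; adjusted p = 0.00425). With any 1 array left out it was 0.59 to 0.65 and passed.

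Fads1 was at 902, 939 and 999 on the scramble arrays and 925, 908 and 880 on the shRNA arrays. These groups overlapped, and the log2 change was −0.065 ± 0.09 (adjusted p = 0.747; 95% confidence interval −0.26 to 0.13). Fads2 was at −0.23 ± 0.09 (adjusted p = 0.184), with no overlap between groups. Within an array the ratio of Fads3 to Fads2 differed by 0.84 ± 0.05 between conditions, without overlap, and that of Fads1 by 0.16 ± 0.06. A higher ratio to Fads2 without overlap was found for 43.5% of all named genes.

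Of the acyl-CoA synthetases, which attach coenzyme A to free fatty acids, Acsl1 and Acsl3 were not analysed, so the step is only partly covered. None of the 3 measured genes passed by limma, and 1 had an unadjusted p under 0.05. That was Acsl4, which prefers arachidonate, at 216, 208 and 212 intensity units on the scramble arrays and 268, 243 and 249 on the shRNA arrays. These groups did not overlap, at a log2 change of 0.26 ± 0.09 (limma, unadjusted p = 0.0175, adjusted p = 0.117). Acsl5 was at −0.28 ± 0.13 (adjusted p = 0.267) with overlapping groups, and Acsl6, within background in both groups, at −0.11 ± 0.15 (adjusted p = 0.742). The ratio of Acsl4 to Acsl5 was higher by 0.53 ± 0.14 without overlap, as for 29.0% of all named genes, while that of Acsl6 to Acsl5 overlapped.

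**Figure D3:**
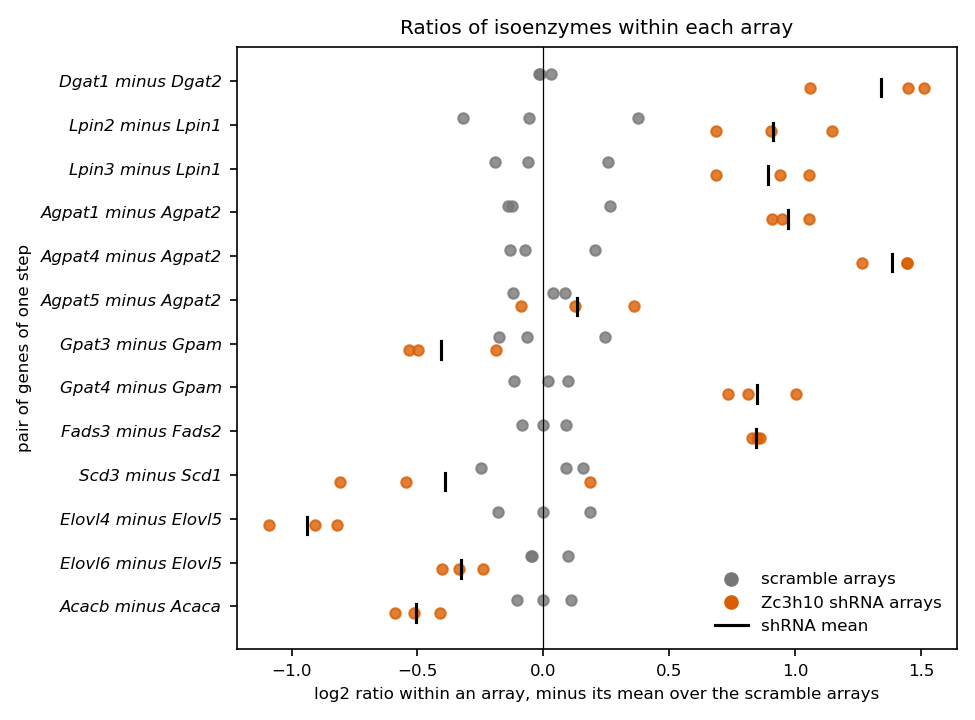
Log2 ratio of pairs of genes of the same step within each array, minus its mean over the scramble arrays, for 3 scramble and 3 Zc3h10 shRNA arrays, with the shRNA mean as a bar. The ratio of Dgat1 to Dgat2 lies at 1.34 on average over the shRNA arrays, while those of Agpat5 to Agpat2 and Scd3 to Scd1 overlap between the groups.

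Triglyceride assembly begins with glycerol-3-phosphate acyltransferases, and 2 of the 3 were lower. Gpam, the mitochondrial form, was at 1371, 1589 and 1624 intensity units on the scramble arrays and 805, 795 and 868 on the shRNA arrays. Gpat3, a form of the endoplasmic reticulum abundant in fat cells, went from 308, 288 and 273 to 134, 104 and 117. Both genes showed no overlap, with log2 changes of −0.89 ± 0.10 for Gpam (adjusted p = 0.00166) and −1.30 ± 0.11 for Gpat3 (2.46-fold lower; adjusted p = 0.000798). Another Gpat3 probe set, with a mean log2 value of 3.63 and so within background, gave a log2 change of −0.16 (adjusted p = 0.445). With the mean of both probe sets, Gpat3 was at −0.73 and passed (adjusted p = 0.00234), a smaller fall than that of Gpam.

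Gpat4, the other form of the endoplasmic reticulum, was at 376, 412 and 384 on the scramble arrays and 362, 408 and 369 on the shRNA arrays. The groups overlapped, and the log2 change was −0.042 ± 0.09 (adjusted p = 0.861; 95% confidence interval −0.26 to 0.17). The log2 ratio of Gpat4 to Gpam differed by 0.85 ± 0.10 and that of Gpat3 to Gpam by −0.41 ± 0.17, both without overlap. With an offset of 32 the difference of Gpat3 from Gpam was −0.24 and its groups were not fully separated (two-sided exact permutation p = 0.3). A higher ratio to Gpam without overlap was seen for 94.4% of all named genes and a lower one for 0.728%.

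The AGPAT enzymes add the next acyl chain to lysophosphatidic acid, and of their 5 genes 2 were lower, 1 was higher and 2 did not pass. Agpat2, whose loss causes congenital lipodystrophy, was at 1502, 1769 and 1778 intensity units on the scramble arrays and 886, 836 and 862 on the shRNA arrays. Its log2 change was −0.96 ± 0.10 (1.95-fold lower; adjusted p = 0.00123). Agpat5 went from 109, 124 and 112 to 77.7, 53.8 and 64.2, a log2 change of −0.83 ± 0.14 (adjusted p = 0.00864). The shRNA arrays were below the scramble arrays throughout for both.

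Agpat4 was higher, at 73.5, 71.5 and 68.9 on the scramble arrays and 90.4, 96.5 and 99.6 on the shRNA arrays. These groups did not overlap, and the log2 change of 0.42 ± 0.09 passed (adjusted p = 0.0200). It did not pass without scramble replicate 2, scramble replicate 3, shRNA replicate 2 or shRNA replicate 3, with a largest adjusted p of 0.0794, nor with the replicate number as a block.

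Agpat1 was at 344, 306 and 311 on the scramble arrays and 326, 331 and 309 on the shRNA arrays, with overlap. Its log2 change of 0.0075 ± 0.09 (adjusted p = 0.978; 95% confidence interval −0.20 to 0.22) turned to −0.013 with median centring. Agpat3 was at −0.29 ± 0.09; its groups did not overlap, but it did not pass (adjusted p = 0.0809). Within an array the ratio to Agpat2 differed by 0.97 ± 0.14 for Agpat1, 0.67 ± 0.08 for Agpat3 and 1.38 ± 0.12 for Agpat4, all without overlap. A higher ratio to Agpat2 without overlap was found for 95.7% of all named genes. For Agpat5 the ratio to Agpat2 overlapped between groups, at 0.13 ± 0.14 (two-sided exact permutation p = 0.4).

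Lipins remove the phosphate from phosphatidic acid to give diacylglycerol. Lpin1, the main lipin of fat tissue, was at 731, 883 and 876 intensity units on the scramble arrays and 352, 389 and 395 on the shRNA arrays. The groups did not overlap, and the log2 change was −1.13 ± 0.11 (2.19-fold lower; adjusted p = 0.000958). Lpin2 was at −0.22 ± 0.15 (adjusted p = 0.487), with overlapping groups, and Lpin3 at −0.24 ± 0.10 (adjusted p = 0.226), with no overlap. The ratio to Lpin1 was higher by 0.91 ± 0.24 for Lpin2 and 0.89 ± 0.17 for Lpin3, without overlap, as it was for 97.2% of all named genes.

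Diacylglycerol acyltransferases add the last chain, and the largest fall among the 37 genes was that of Dgat2. Dgat2 was at 1784, 2151 and 2120 intensity units on the scramble arrays and at 742, 586 and 579 on the shRNA arrays. The highest shRNA value was far below the lowest scramble value. The log2 change was −1.67 ± 0.13 (3.19-fold lower, or 31.4% of scramble with a 95% confidence interval of 25.5 to 38.6%; adjusted p = 0.000660), and 0.173% of all named genes had a larger fall.

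Dgat1, an enzyme of the same reaction from an unrelated protein family, was at 351, 422 and 430 on the scramble arrays and 306, 317 and 328 on the shRNA arrays. Its groups did not overlap, but the log2 change of −0.33 ± 0.11 did not pass (adjusted p = 0.0993). Within an array the log2 ratio of the Dgat1 signal to that of Dgat2 was −2.35, −2.35 and −2.30 on the scramble arrays and −1.28, −0.89 and −0.82 on the shRNA arrays. That ratio differed by 1.34 ± 0.14 between conditions, without overlap, and a higher ratio to Dgat2 without overlap was found for 99.5% of all named genes.

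The monoacylglycerol acyltransferases Mogat1 and Mogat2 make diacylglycerol from monoacylglycerol and belong to the protein family of Dgat2. Both had shRNA mean log2 values within background. Mogat1 was at −0.29 ± 0.17 (adjusted p = 0.382) and Mogat2 at −0.21 ± 0.10 (adjusted p = 0.285). Mogat2 is the direct neighbour of Dgat2 on chromosome 7 in the RefSeq order of coding genes.

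In all, 23 pairs of isoenzymes were compared, each gene against the one with the highest mean signal in its step, and 20 did not overlap between conditions. With 3 against 3 arrays the two-sided exact permutation test cannot go below p = 0.1, or 0.115 after Benjamini-Hochberg adjustment over the pairs, so no pair could pass. Against Scd1, Gpam, Agpat2, Lpin1 and Dgat2, which were lower, 86.2 to 99.5% of named genes had higher ratios without overlap. Against Elovl5, Fads2 and Acsl5, which did not pass, 48.2, 43.5 and 29.0% did. These ratios are therefore descriptions, and higher ratios so common on the array single out no isoenzyme by themselves. Lower ratios without overlap were rarer, for 0.856% of named genes against Acaca, 0.728% against Gpam and 4.96% against Elovl5. Acacb, Gpat3, Elovl4 and Elovl6 had such lower ratios. With an offset of 32 the differences of Acacb and Gpat3 were smaller, and Gpat3 was not fully separated. The 20 include Elovl2 and Scd4, within background in both groups, and Mogat1 and Mogat2, within background in the shRNA group, whose ratios carry little besides the fall of the reference gene.

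Genes around the pathway were counted in whole lists drawn up by function, with earlier results of these data known. Of 14 measured regulators of lipogenesis, 8 were lower and none was higher by limma, with a median log2 change of −0.61; at an unadjusted p under 0.05, 1 was higher, Insig2 (0.33 ± 0.10, adjusted p = 0.0793). Srebf1, the gene of SREBP-1, was at −0.90 ± 0.09, Mlxipl, the gene of ChREBP, at −1.41 ± 0.17, Pparg at −0.96 ± 0.12 and Cebpa, an adipogenic factor, at −1.71 ± 0.14. Insig1, which retains SREBP precursors in the endoplasmic reticulum, was at −0.96 ± 0.09. Thrsp, a lipogenic gene responsive to thyroid hormone, was at −0.78 ± 0.09. All 6 of these passed.

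Of 27 other enzymes of the pathway, 13 were lower and 2 were higher, with a median of −0.43. Elovl3, an elongase known from brown fat, was at −2.11 ± 0.14, Gpd1, which makes glycerol-3-phosphate, at −1.50 ± 0.11, Bscl2, the seipin of lipid droplet formation, at −1.10 ± 0.10, and Hsd17b12, the ketoacyl reductase of elongation, at −0.99 ± 0.11. The 2 higher genes, named after their values were seen, were Hacd4, of the dehydratase family of elongation, at 1.45 ± 0.16 (adjusted p = 0.00144) and Plpp3, a lipid phosphate phosphatase, at 0.44 ± 0.11 (adjusted p = 0.0358).

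Of 4 measured sources of cytosolic NADPH, 2 were lower. G6pdx, also in this list, had no probe set annotated to it alone and was not analysed. Pgd of the pentose phosphate pathway was at −0.74 ± 0.09 (adjusted p = 0.00253). Idh1 was at −0.36 ± 0.09 (adjusted p = 0.0465) and did not pass when any 1 array was left out. Aldh1l1 was at −0.54 ± 0.17 (adjusted p = 0.0909) and Mthfd1 at 0.033 ± 0.10 (adjusted p = 0.902), neither passing.

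**Figure D4:**
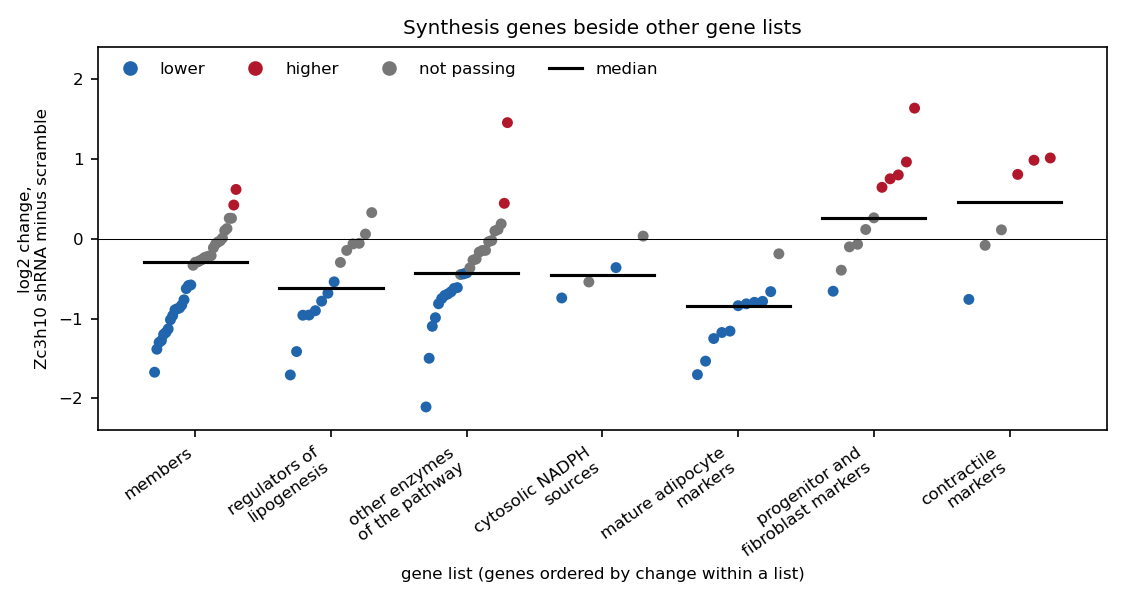
Log2 change of each gene (points, Zc3h10 shRNA minus scramble, 3 arrays per group) in the genes of fatty acid and triglyceride synthesis and in other lists, with the median of each list as a bar. The medians are −0.29 for the synthesis genes, −0.84 for mature adipocyte markers and 0.26 for progenitor and fibroblast markers.

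Some markers of cell state also differed between the conditions. Of 11 measured markers of mature adipocytes, 10 were lower, with a median of −0.84, and their summed intensity was 20646 to 23016 on the scramble arrays and 11297 to 12148 on the shRNA arrays. Fabp4, a fatty acid carrier of fat cells, was at 7064 ± 440 intensity units (SD, n = 3) in scramble, while Lep was within background. Of the 37 synthesis genes, 12 lay below the marker median. Adipoq, the adiponectin gene, was at −0.84 ± 0.08, Plin1 of the lipid droplet coat at −1.16 ± 0.09, lipoprotein lipase, Lpl, at −1.17 ± 0.11, the glucose transporter gene Slc2a4 at −1.53 ± 0.14 and the glycerol channel gene Aqp7 at −1.70 ± 0.13.

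Of 11 markers of mesenchymal progenitors and fibroblasts, 5 were higher and 1, Pdgfra, was lower (−0.66 ± 0.10). Their summed intensity was 4943 to 5604 on the scramble arrays and 6464 to 6772 on the shRNA arrays. The 5 higher markers were Fap (1.63 ± 0.11, from a scramble level within background), Eng (0.96 ± 0.12), Prrx1 (0.80 ± 0.09), Pdgfrb (0.75 ± 0.12) and Cd44 (0.64 ± 0.09). Not passing were Col1a1 (0.26 ± 0.11), Dpp4 (0.12 ± 0.11), Cd34 (−0.39 ± 0.14), Thy1 (−0.10 ± 0.11) and Dlk1 (−0.070 ± 0.12). Of these, Dpp4 and Cd34 were within background in both groups. Under the same rule 5.51% of all named genes were higher and 6.61% were lower. Of 6 contractile markers, 3 were higher and 1 was lower. Tagln was at 1.01 ± 0.11, Myl9 at 0.98 ± 0.10, Acta2 at 0.80 ± 0.12 and Des at −0.76 ± 0.19. Their list's summed intensity was 1741 to 2204 on the scramble arrays and 3454 to 3769 on the shRNA arrays. Such sums mostly reflect the brightest genes of a list, here Acta2 with means of 1410 in scramble and 2450 in Zc3h10 shRNA. In whole cultures, fewer fat cells and less RNA of a gene per fat cell cannot be told apart, and the part of these markers in the synthesis genes' changes was not tested.

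Of 9 markers of bone, cartilage and skeletal muscle, 2 were lower, with a summed intensity of 938 to 1100 on the scramble arrays and 925 to 970 on the shRNA arrays. These were Ibsp at −1.63 ± 0.19, with a shRNA mean log2 value within background, and Bglap at −0.49 ± 0.10, within background in both groups. Sp7 (0.19 ± 0.12) and Myod1 (−0.17 ± 0.11) did not pass and were within background. Of 5 macrophage and leukocyte markers, with a summed intensity of 78.6 to 83.9 on the scramble arrays and 66.8 to 79.6 on the shRNA arrays, none passed by limma and 0 had an unadjusted p under 0.05. Adgre1, Ptprc, Csf1r and Lyz2 were within background in both groups, and Cd68 was at −0.16 ± 0.13.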

How the data were processed

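The authors deposited 1 linear intensity per probe set for each of 6 arrays. The submitters' processing notes list Affymetrix Expression Console and Partek 6.6 and assign them no step. Background correction and normalization are otherwise not given, and could matter most for dim probe sets.

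Log2 intensities, with no offset, of 33079 probe sets were compared by limma 3.58.1 (R 4.3.3; lmFit, eBayes, two-sided), with Benjamini-Hochberg adjustment over all of them and a threshold of 0.05. The code was tested on simulated data. Symbols came from the platform annotation, updated through RefSeq (GRCm38.p6): 23043 probe sets had 1, 1740 had several and 8296 had none here. The probe set with the highest mean stood for its gene.

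All 40 genes are named, with the 4 genes of smallest p in each other list and Elovl3, Srebf1, Mlxipl, Pparg, Cebpa, Gpd1 and Zc3h10. Hacd4, Plpp3, Adipoq, Fabp4, Lep, Pdgfra, Pdgfrb, Col1a1, Dpp4, Cd34, Thy1, Dlk1, Lyz2 and Insig2 were named after their values were seen. The genes and lists were chosen with earlier results of these data known. Alternatives were other scalings, an offset of 32, filters on dim probe sets, a trend prior, the ordinary t statistic, a replicate block, the mean of a gene's probe sets and leaving out each array. The number of arrays limits the precision.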

Additional observations from a re-analysis of the deposited data

How the results depend on the processing

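Over 15 alternative settings, 515 of 552 values of the 37 genes kept direction and side of the threshold, 16 lost it, 13 gained it and 8 changed sign. Lower genes numbered 13 with the ordinary t statistic (Acss2, Me1, Scd3 and Agpat5 did not pass), 20 with an offset of 32, 19 without probe sets below the median level, 21 with a trend prior, 15 to 18 with 1 array left out and 17 under the other settings. Of the 17, 15 passed with each array left out. Elovl5, Fads2 and Agpat3 also passed as lower with the offset of 32 and with the trend prior. Dgat1 did so with the trend prior and, like Agpat3, with the filter at the median level. Acsl4 passed as higher under all of these settings. Higher genes numbered 1 with the replicate block and 1 to 2 with 1 array left out, being 1 without scramble replicate 2, scramble replicate 3, shRNA replicate 2 or shRNA replicate 3; they numbered 3 with the offset, the trend prior or the filter at the median level. The median of the genes was −0.46 without probe sets below the median level, where 34 genes were left, and −0.40 to −0.28 with 1 array left out. Changed probe sets numbered 3238, or 1972 with the ordinary t statistic and 1807 to 2578 with 1 array left out, and were more with the offset of 32 (4457), the filter at the median level (4454) and the trend prior (4492). They numbered 1807 and 2030 on dropping scramble array 2 or 3, and 2068 and 1959 on dropping shRNA array 2 or 3. Same-numbered arrays deviated together at r of 0.084, −0.0046 and 0.043, and arrays of different number at −0.093 to 0.061. With 3 arrays per group these values cannot show whether same-numbered arrays share a batch. The replicate block gave 17 lower genes and 2455 probe sets. Alternatives for genes of the other lists were chosen after seeing the data.

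Values that changed sign were small: Elovl1 (0.019 with quantile normalization, −0.051 to 0.00095 with 1 array left out), Acsl6 (−0.25 to 0.054 with 1 left out), Agpat1 (−0.013 with median centring, −0.025 to 0.060 with 1 left out), Mthfd1 (−0.0073 to 0.11 with 1 left out) and Ptprc (−0.0033 to 0.23 with 1 left out). The difference of Scd3 from Scd1 was 0.14 with the offset of 32, and that of Acsl6 from Acsl5 was −0.022 to 0.26 with 1 array left out. The cause was not tested. Signal near background limits Scd3, Scd4, Mogat1, Mogat2, Elovl2 and Acsl6.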
